A study of Mus musculus with 20 samples.

Results

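The protein genes of the mitochondrial ribosome were taken as every row of the gene table whose symbol begins with Mrpl or Mrps and a digit, with 5 pseudogenes left out. This gave 78 genes of the 55822 in the table, 49 named for the large subunit (Mrpl) and 29 for the small subunit (Mrps). All 78 passed the filter on low counts, and the lowest count of any of them in any sample was 16. The RNA came from whole kidney of male C57BL/6J mice, an inbred strain, aged 8 weeks. The mice were dosed on 6 consecutive days and the organs taken on day 7. Control mice received phosphate-buffered saline (PBS), and the treated mice received puberulic acid, a tropolone made by some Penicillium moulds, at 1 mg per day. The route is given as oral in the study's design and as gavage or peritoneal injection in its protocol, and which of these each mouse had is not stated. Each of these groups has 5 samples. The labels also describe mice given a normal or a toxic lot of the supplement Choleste-Help, but the names of the remaining 10 sample columns do not show a lot, and they are not analysed here.

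The mitochondrial ribosome sits in the matrix and translates the few messages of mitochondrial DNA, all of which encode core subunits of the respiratory chain complexes and ATP synthase. Its RNAs are made in the organelle, whereas its proteins are encoded in the nucleus, translated in the cytosol and imported. Part of them descend from the ribosome of the bacterial ancestor, and part are found only in mitochondria. The kidney's proximal tubule is among the tissues richest in mitochondria.

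Library totals ran from 18409877 to 24705587 counts. Levels are CPM, a library's counts rescaled to a common total, here with TMM factors (trimmed mean of M-values), which were 0.827 to 0.848 in the controls and 1.17 to 1.26 with puberulic acid. Because the factors separate the groups, every direction was also computed with total counts and no factor. That scaling moved the median log2 fold change of all 16266 genes tested from 0.05 to 0.56. It shifted all genes upward by nearly the same amount, so calls higher with TMM factors were bound to hold. Genes were called at an adjusted p under 0.05 (edgeR quasi-likelihood test, Benjamini-Hochberg over all genes tested). Markers of the proximal tubule summed to 36105 to 48087 CPM in controls and 5977 to 7918 CPM with puberulic acid, with 10 of 10 markers lower under both scalings. Marker counts stand beside 34.2% of all genes tested called higher and 31.1% lower with TMM factors, and 56.4% and 15.5% with total counts. Those of injured tubule were higher for 7 of 7 and of proliferation for 7 of 7 under both scalings, of macrophages for 5 of 7 (7 with total counts) and of fibroblasts for 4 of 5 (5 with total counts). Of the others, 4 of 5 for the loop and distal tubule (2 lower and 1 higher with total counts) and 4 of 6 for the collecting duct (3 with total counts) were lower. The summed loop and distal markers overlapped, at 3875 to 5746 and 3144 to 6320 CPM, and 1 of 5 podocyte and 1 of 6 endothelial markers were called, both lower, while with total counts neither was lower and 1 podocyte marker was higher. Of the neutrophil and of the T and B cell markers, 1 of 2 and 1 of 3 tested were higher (1 and 2 with total counts). Their part in the results below was not tested, and in whole tissue fewer cells of a type and less RNA per cell cannot be told apart. Control replicate 1 was the lowest control for 29 of the 53 members called lower, and the highest treated sample was puberulic acid replicate 4 for 24 and replicate 1 for 17 of them, so counts of calls are also given without these libraries.

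Most mitochondrial ribosomal protein genes were lower with puberulic acid under TMM scaling. Of the 78 genes, 53 were called lower (67.9%, against 31.1% of all genes tested) and 4 were called higher (5.13%, against 34.2%), and 21 were not called. Called in either direction were 73.1% of them and 65.3% of all genes. The median log2 fold change was -0.43, with quartiles of -0.80 and -0.18 and a range from -1.27 to 1.00, and 68 of 78 values lay below 0. Without both replicates numbered 1, there were 56 calls lower and 4 higher, with a median of -0.47. Without puberulic acid replicate 4 there were 53 lower and 4 higher, with a median of -0.53. For 56 members no treated sample fell inside the CPM range of the controls or the reverse (71.8%, against 50.1% of all genes tested). These were 52 of the 53 genes called lower, 3 of the 4 called higher, and Mrpl9, which was not called. With total counts the ranges did not overlap for 38 members (48.7%, against 56.5% of all genes), 19 below and 19 above 0.

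The direction of the typical member depended on the scaling. With total counts the median was 0.08, with 24 members called higher (30.8%, against 56.4% of all genes) and 24 called lower (30.8%, against 15.5%). Relative to the median of all genes tested, the members' median lay lower, at -0.48 under both. Changing the scaling shifts all genes by nearly the same amount, so this distance was bound to stay the same. The 24 genes lower with total counts were all among the 53 lower with TMM factors, so 24 were lower under both scalings (30.8%, against 15.5% of all genes). The same 4 genes were higher under both (5.13%, against 34.2%). Both overlaps follow from the shift. All 5564 genes called higher with TMM factors stayed higher, and all 2526 lower with total counts were lower under both. Of the other genes called lower with TMM factors, 26 were not called with total counts and 3 (Mrpl39, Mrpl46 and Mrps11) were called higher. Of the 21 genes not called with TMM factors, 17 were called higher with total counts.

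**Figure D1:**
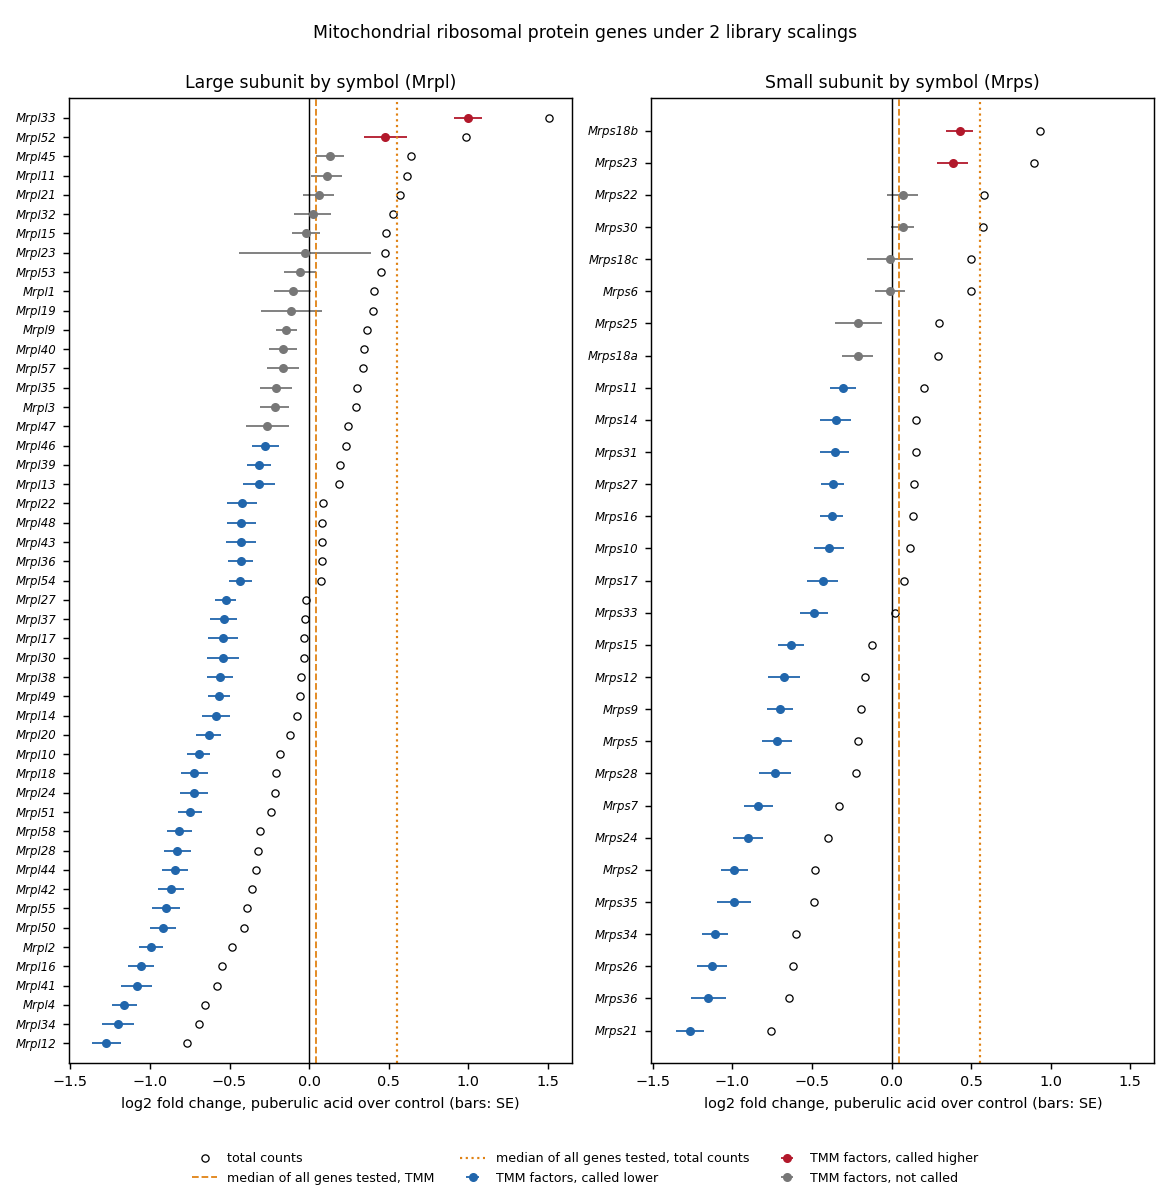
Log2 fold change of puberulic acid over control (x axis) for each of the 49 Mrpl genes (left) and 29 Mrps genes (right), with filled points and SE bars for TMM factors (blue lower, red higher, grey not called), open circles for total counts, and orange lines at the median of all genes tested, 0.05 and 0.56. The open circles lie to the right of the filled points throughout.

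The summed level of the members makes the same point by sample. In control replicates 1 to 5 the 78 genes summed to 3892, 4345, 4425, 4215 and 4013 CPM, and with puberulic acid to 2920, 2871, 2912, 3071 and 2764 CPM. The groups did not overlap, with means of 4178 ± 223 and 2907 ± 111 CPM (SD, n = 5 each), a change of -30.4%. As a share of all counts, which uses no scaling factor, the members took 0.350% ± 0.021 in controls and 0.346% ± 0.007 with puberulic acid (SD, n = 5 each), and the ranges overlapped.

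The 2 subunits changed by similar amounts. Of the 49 large subunit genes, 32 were called lower and 2 higher, with a median of -0.43. Of the 29 small subunit genes, 21 were lower and 2 higher, with a median of -0.43. With total counts 16 and 16 of the large and 8 and 8 of the small subunit genes were lower and higher, and both medians were 0.08. Over all genes tested, 31.1% were lower and 34.2% higher with TMM factors, and 15.5% and 56.4% with total counts. The summed level changed by -30.6% for the large and by -30.0% for the small subunit. Counts of large subunit genes divided by counts of small subunit genes, a ratio that needs no scaling, were 1.88, 1.86, 1.82, 1.83 and 1.82 in the controls and 1.79, 1.82, 1.80, 1.86 and 1.85 with puberulic acid. These ranges overlapped.

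Symbols do not always follow the structure. Mrps18a and Mrps30 carry small subunit names but sit on the large subunit, and neither was called. Moving them gave medians of -0.43 for 51 large and -0.49 for 27 small subunit genes, a difference of 0.06. Counts by class stand beside 31.1% of all genes tested lower and 34.2% higher with TMM factors, and 15.5% and 56.4% with total counts. Of 30 large subunit genes with a bacterial counterpart, 18 were lower and 1 was higher, with a median of -0.48 (0.03 with total counts, 10 lower and 9 higher). The 19 found only in mitochondria had 14 lower, 1 higher and a median of -0.43 (0.08 with total counts, 6 lower and 7 higher). Of 16 small subunit genes with a bacterial counterpart, 14 were lower and 0 higher, with a median of -0.65 (-0.15 with total counts, 4 lower and 3 higher). The 10 classed as specific to mitochondria had 6 lower, 2 higher and a median of -0.36 (0.15 with total counts, 3 lower and 3 higher). These classes follow a protein's place in the ribosome, and Mrps18b is among the 10 although it is related to a bacterial protein. Counted by descent, which was chosen after seeing the data, 14 of 17 small subunit genes with a bacterial counterpart were lower and 1 higher (median -0.63), and 6 of the other 9 were lower and 1 higher (median -0.37). With total counts these were 4 lower and 4 higher (median -0.12) and 3 lower and 2 higher (median 0.14). No test was made of these differences between classes.

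Among genes called lower, 9 had a log2 fold change of -1 or less, and the 8 largest decreases are described here. Each of the 8 was also lower with total counts, and none overlapped between groups. Mrpl12 (ENSMUSG00000039640) encodes a protein of the flexible stalk that recruits translation factors and has also been reported to bind the mitochondrial RNA polymerase. Its level in controls was 190, 228, 232, 228 and 207 CPM, and with puberulic acid 101, 81.2, 89.6, 93.3 and 82.9 CPM. The highest treated sample lay far below the lowest control. Mrpl12 fell from 217 ± 18.1 to 89.7 ± 8.12 CPM (SD, n = 5 each), a log2 fold change of -1.27 ± 0.09 (SE; edgeR adjusted p = 2.8e-07) and of -0.77 with total counts.

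Mrps21 (ENSMUSG00000054312), a small subunit protein with a bacterial counterpart, had 98.8, 123, 130, 111 and 105 CPM in controls. With puberulic acid its level was 47.8, 44.0, 50.1, 47.8 and 46.9 CPM, so the treated samples were tightly grouped and all low. Its log2 fold change was -1.27 ± 0.09 (edgeR adjusted p = 2.5e-07), and -0.76 with total counts. Mrpl34 (ENSMUSG00000034880), a short large subunit protein, had 45.3, 59.0, 50.1, 61.7 and 54.2 CPM in controls and 26.6, 21.98, 23.3, 23.3 and 22.3 CPM with puberulic acid. Puberulic acid replicate 1 was the highest of the treated samples for Mrpl34 and still below every control. The log2 fold change was -1.20 ± 0.10 (edgeR adjusted p = 8.9e-07), and -0.69 with total counts.

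Mrpl4 (ENSMUSG00000003299), whose product lines the tunnel through which the new chain leaves, had 84.9, 103, 102, 101 and 99.7 CPM in controls. It had 45.2, 43.4, 43.1, 46.7 and 41.3 CPM with puberulic acid, a log2 fold change of -1.16 ± 0.08 (edgeR adjusted p = 1.7e-07). Control replicate 1 was the lowest control, as it was for 29 of the 53 genes called lower. Mrps36 (ENSMUSG00000061474) is named as a ribosomal protein but is known as a component of the oxoglutarate dehydrogenase complex. It had 55.8, 69.0, 74.2, 56.0 and 52.6 CPM in controls and 30.5, 26.1, 28.8, 26.7 and 26.5 CPM with puberulic acid. Its log2 fold change was -1.15 ± 0.11 (edgeR adjusted p = 2.3e-06), and without it the small subunit median was -0.41.

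Mrps26 (ENSMUSG00000037740) and Mrps34 (ENSMUSG00000038880) are small subunit proteins found only in mitochondria. Mrps26 had 48.2 to 66.3 CPM in controls and 25.8 to 29.3 CPM with puberulic acid, a log2 fold change of -1.13 ± 0.09 (edgeR adjusted p = 9.7e-07). Mrps34 had 66.2 to 77.3 CPM in controls and 28.5 to 36.2 CPM with puberulic acid, a log2 fold change of -1.11 ± 0.08 (edgeR adjusted p = 4.1e-07). Mrpl41 (ENSMUSG00000036850), a large subunit protein found only in mitochondria, had 29.8 to 40.0 CPM and 15.3 to 18.5 CPM, a log2 fold change of -1.08 ± 0.10 (edgeR adjusted p = 1.9e-06). With total counts these 3 genes changed by -0.62, -0.60 and -0.58.

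The 4 genes called higher with TMM factors were also higher with total counts, as the upward shift of that scaling entails. Mrpl33 (ENSMUSG00000106918), a short large subunit protein with a bacterial counterpart, stood furthest from the rest. It had 37.0, 39.9, 40.5, 33.6 and 36.4 CPM in controls and 67.5, 82.0, 73.7, 83.0 and 68.6 CPM with puberulic acid. The ranges were well apart, in the direction opposite to most members. Mrpl33 rose from 37.5 ± 2.81 to 74.96 ± 7.29 CPM (SD, n = 5 each), a log2 fold change of 1.00 ± 0.09 (edgeR adjusted p = 1.5e-06), and of 1.51 with total counts. For every 100 counts of Mrpl12 there were 17.4 ± 1.72 counts of Mrpl33 in controls and 84.3 ± 12.4 with puberulic acid (SD, n = 5 each), a ratio of counts that needs no scaling but whose genes were picked as the extremes, so its size is a description.

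The other increases were smaller. Mrpl52, a large subunit protein found only in mitochondria, had 29.2, 31.6, 37.5, 24.9 and 25.5 CPM in controls and 32.4, 44.7, 40.5, 49.5 and 40.3 CPM with puberulic acid. Its ranges overlapped, since puberulic acid replicate 1 lay below control replicate 3, and its log2 fold change was 0.48 ± 0.14 (edgeR adjusted p = 0.0086). Mrps18b had 41.5, 47.5, 45.9, 47.4 and 37.99 CPM in controls and 58.9, 63.1, 58.2, 62.6 and 53.7 CPM with puberulic acid, a log2 fold change of 0.43 ± 0.09 (edgeR adjusted p = 0.00085). Mrps23, a small subunit protein found only in mitochondria, had 41.7, 50.7, 41.3, 43.2 and 39.7 CPM in controls and 67.4, 56.4, 54.6, 52.3 and 52.2 CPM with puberulic acid. Its log2 fold change was 0.38 ± 0.10 (edgeR adjusted p = 0.004). For Mrps18b and Mrps23 every treated sample was above every control.

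**Figure D2:**
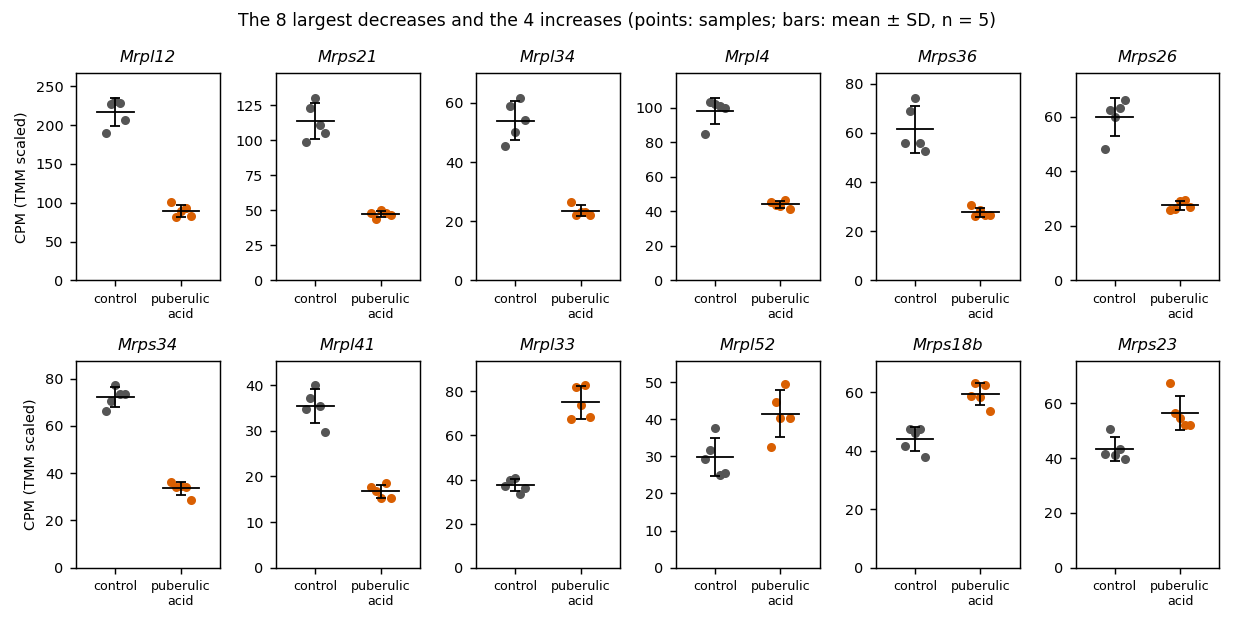
CPM after TMM scaling (y axis, from 0) in the 5 control (grey) and 5 puberulic acid (orange) samples for the 8 members with the largest decreases and the 4 called higher, with points for samples and bars for mean ± SD. The groups do not overlap in any panel except that of Mrpl52, where 32.4 CPM in a treated sample lies below 37.5 CPM in a control.

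Promoter sequence of these genes is shown because they moved apart within a family whose promoters often carry sites for the same few factors. Nuclear genes for mitochondrial proteins are known targets of NRF1, of ETS family factors such as GABP, and of YY1. RefSeq windows (GRCm38.p6) of 300 bases, 250 before and 50 after each start site, matched 69 of the 78 members by symbol, with 75 windows. The letters searched on both strands were GCATGCGC (NRF1 core), CCGGAAG (ETS core) and AAGATGGC (YY1 core), and the ETS core ends in the AAG with which the YY1 core begins. Positions count from 1 at the start base and from -1 just before it. The 4 genes called higher and the 4 largest decreases with a window are printed from 120 bases before to 30 bases after the start, on the gene's strand, with whole matches in capitals.
Mrpl33, higher, chr5:31613831-31613980, plus strand: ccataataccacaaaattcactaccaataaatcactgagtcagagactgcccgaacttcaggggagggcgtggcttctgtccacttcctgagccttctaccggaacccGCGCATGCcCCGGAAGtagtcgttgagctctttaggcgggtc
Mrpl52, higher, chr14:54426789-54426938, plus strand: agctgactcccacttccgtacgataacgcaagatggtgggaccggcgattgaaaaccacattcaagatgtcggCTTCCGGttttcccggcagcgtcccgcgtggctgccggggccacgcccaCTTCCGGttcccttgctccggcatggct
Mrps18b, higher, chr17:35916411-35916560, minus strand: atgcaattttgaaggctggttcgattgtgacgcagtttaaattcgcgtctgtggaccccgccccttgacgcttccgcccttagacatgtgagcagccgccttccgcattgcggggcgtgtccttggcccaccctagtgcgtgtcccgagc
Mrps23, higher, chr11:88204268-88204417, plus strand: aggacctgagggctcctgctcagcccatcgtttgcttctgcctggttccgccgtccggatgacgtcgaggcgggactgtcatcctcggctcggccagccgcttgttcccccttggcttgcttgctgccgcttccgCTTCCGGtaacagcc
Mrpl12, lower, chr11:120484517-120484666, plus strand: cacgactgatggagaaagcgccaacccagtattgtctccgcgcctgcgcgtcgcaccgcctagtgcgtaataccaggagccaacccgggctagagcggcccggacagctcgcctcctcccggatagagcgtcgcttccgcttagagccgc
Mrps21, lower, chr3:95871485-95871634, minus strand: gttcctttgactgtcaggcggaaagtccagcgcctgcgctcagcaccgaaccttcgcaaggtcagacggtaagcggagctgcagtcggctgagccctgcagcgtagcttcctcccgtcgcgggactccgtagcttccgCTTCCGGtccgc
Mrpl34, lower, chr8:71464806-71464955, plus strand: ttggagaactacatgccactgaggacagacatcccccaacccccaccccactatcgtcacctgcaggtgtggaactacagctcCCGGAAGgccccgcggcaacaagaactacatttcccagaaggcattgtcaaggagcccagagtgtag
Mrps36, lower, chr13:100744630-100744779, minus strand: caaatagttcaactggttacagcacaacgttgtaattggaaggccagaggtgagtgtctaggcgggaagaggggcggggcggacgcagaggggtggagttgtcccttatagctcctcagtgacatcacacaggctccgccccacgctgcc

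In Mrpl33 an NRF1 core at position -12 is followed by an ETS core that spans the start from position -3. Mrpl52 has ETS cores at positions -47 and 3, and Mrps23 has an ETS core at position 16. Mrps18b has its matches outside the printed bases, with NRF1 cores at positions -223 and 29 (the latter running past the end) and an ETS core at position 44. Of the genes called lower, Mrps21 and Mrpl34 each held an ETS core, at positions 19 and -37, and Mrpl12 and Mrps36 held none of the searched letters in their windows. Over all members, 10.7% of windows held the NRF1 core, 34.7% the ETS core and 16.0% the YY1 core, against 2.71%, 8.86% and 2.75% of 32851 windows in all and 4.52%, 15.5% and 3.95% of the 14994 windows of genes tested. Of the 23 windows of members lower under both scalings, 4.35% held the NRF1 core, 26.1% the ETS core and 13.0% the YY1 core. In the 4 windows of genes called higher, 4 held the ETS core, 2 the NRF1 core and 0 the YY1 core. A match describes the letters only, and no factor binding was measured.

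Proteins with known roles in the ribosome differed among themselves. At the base of the stalk, Mrpl10 fell from 89.3 ± 5.48 to 55.2 ± 2.80 CPM (SD, n = 5 each; log2 fold change -0.69 ± 0.07, edgeR adjusted p = 5.3e-06). Mrpl11, its neighbour there, was not called, at 47.1 ± 6.40 and 50.8 ± 2.83 CPM (edgeR adjusted p = 0.34). The stalk genes thus ran from -1.27 for Mrpl12 through -0.69 for Mrpl10 to 0.11 for Mrpl11 on the log2 scale, and with total counts from -0.77 through -0.19 to 0.62. With total counts Mrpl11 was called higher. Mrps12, a protein of the decoding centre, had 27.9 to 34.0 CPM in controls and 16.5 to 21.9 CPM with puberulic acid. It fell by 0.67 on the log2 scale (edgeR adjusted p = 8.6e-05) but was not called with total counts, at -0.17.

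Mrpl58, a peptidyl-tRNA hydrolase built into the large subunit that can free stalled ribosomes, had 56.0, 57.9, 59.8, 57.5 and 57.1 CPM in controls. It had 35.1, 31.5, 30.6, 37.2 and 29.5 CPM with puberulic acid, a log2 fold change of -0.81 ± 0.08 (edgeR adjusted p = 3.5e-06). The controls were within a few CPM of each other and all treated samples were low. Mrpl44, a large subunit protein with a fold like that of ribonuclease III, went from 44.0 ± 3.24 to 24.6 ± 1.59 CPM (SD, n = 5 each), a log2 fold change of -0.84 ± 0.08 (edgeR adjusted p = 3.2e-06). Mrpl45, which lies near the tunnel exit and links the ribosome to the inner membrane, was not called (43.3 ± 4.41 and 47.5 ± 2.83 CPM, edgeR adjusted p = 0.2). Mrpl58 and Mrpl44 were also lower with total counts, and Mrpl45 was called higher there and with upper-quartile factors (edgeR adjusted p = 0.0411).

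Several members are genes in which inherited defects impair mitochondrial translation. Mrps34 is among them. Mrps2 fell from 48.2 ± 3.19 to 24.3 ± 2.15 CPM (SD, n = 5 each; log2 fold change -0.99 ± 0.09, edgeR adjusted p = 1.3e-06). Mrps16 had 34.4 to 38.9 CPM in controls and 27.5 to 29.5 CPM with puberulic acid, a log2 fold change of -0.38 ± 0.07 (edgeR adjusted p = 0.0006), and 0.13 and not called with total counts. Mrps22 had 20.4 to 26.0 CPM and 22.8 to 28.9 CPM and was not called (edgeR adjusted p = 0.55). Mrpl3 had 33.9 to 42.1 CPM and 30.4 to 36.4 CPM with a log2 fold change of -0.22 ± 0.09 that missed the threshold (edgeR adjusted p = 0.052). Mrpl3 was called lower with RLE factors (edgeR adjusted p = 0.0434), with DESeq2 (adjusted p = 0.0342), and without control replicate 3, control replicate 4 or puberulic acid replicate 1 (edgeR adjusted p = 0.0329, 0.0365 and 0.0128). With total counts Mrps22 and Mrpl3 were called higher, at 0.58 and 0.29. Mrps27, a pentatricopeptide repeat protein that binds RNA, fell from 30.5 ± 0.56 to 23.6 ± 1.48 CPM (SD, n = 5 each; log2 fold change -0.37 ± 0.07, edgeR adjusted p = 0.00087), and stood at 0.14 and not called with total counts.

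The Mrps18 genes are paralogues related to a single bacterial protein, whose place in the small subunit Mrps18c holds. Mrps18a, on the large subunit, had 44.4, 59.5, 49.96, 52.2 and 43.6 CPM in controls and 47.4, 45.1, 41.9, 41.8 and 39.2 CPM with puberulic acid, and was not called (log2 fold change -0.21 ± 0.10, edgeR adjusted p = 0.075). Without control replicate 1, control replicate 5 or puberulic acid replicate 1, Mrps18a was called lower (edgeR adjusted p = 0.0377, 0.0348 and 0.0273). Mrps18c, in the small subunit, had 31.8, 27.6, 31.2, 20.4 and 19.0 CPM and 27.7, 25.7, 24.8, 25.9 and 25.1 CPM, with the treated samples inside the control range. Its log2 fold change was -0.01 ± 0.14 (edgeR adjusted p = 0.96). Mrps18b was thus the only paralogue of the 3 called higher with TMM factors, whereas with total counts all 3 were called higher, at 0.29, 0.94 and 0.50 for Mrps18a, Mrps18b and Mrps18c. The differences between the paralogues were not tested. Beside Mrps18c, Mrps6 and Mrpl15 lay closest to no change, at -0.01 ± 0.09 and -0.02 ± 0.09 with overlapping ranges, and Mrps30 was at 0.07 ± 0.07. These 3 were also called higher with total counts, at 0.50, 0.49 and 0.58.

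The levels of members were compared per kilobase of coding length. That length leaves out the untranslated parts of a message, so ranks by it can favour genes with a short coding part. In controls the median was 81.9 CPM per kilobase, and 54 of 78 members lay within 2-fold of it. Mrps21 was the highest at 436 CPM per kilobase and Mrpl12 the next at 360, and both are among the largest decreases. The lowest was Mrpl23, at 4.89 CPM per kilobase. Mrpl23 had 16 to 74 counts in controls and 38 to 95 with puberulic acid, while its pseudogene copy Mrpl23-ps1 held 435 to 537 and 664 to 864 counts, so how reads were divided between the copies is uncertain and the level of Mrpl23 is too. Across the 78 members, log2 fold change was lower where the control level per kilobase was higher (Spearman's rho -0.44), and its rho with coding length was 0.06. These are descriptions across genes of the same libraries, and the control level enters both sides of the first.

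The sums were then set against other parts of the transcriptome by ratios of counts, which need no scaling. For every 100 counts of cytosolic ribosomal protein genes, members held 18.1, 19.0, 17.1, 16.4 and 15.3 counts in controls and 9.93, 7.66, 7.59, 7.49 and 8.31 with puberulic acid. The ranges did not overlap, and the ratio changed from 17.2 ± 1.44 to 8.20 ± 1.02 (SD, n = 5 each). For every 100 counts of nuclear respiratory chain genes, members held 16.1, 14.98, 14.7, 15.04 and 14.4 counts in controls and 18.3, 21.4, 20.6, 22.4 and 21.6 with puberulic acid. Here the treated samples were all higher, with means of 15.04 ± 0.645 and 20.9 ± 1.59 (SD, n = 5 each). Against the mitochondrially encoded genes the members went from 1.76 ± 0.218 to 2.75 ± 0.358 counts per 100 (SD, n = 5 each), again with no overlap. Members therefore stood lower relative to the cytosolic ribosome and higher relative to the messages of the respiratory chain.

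**Figure D3:**
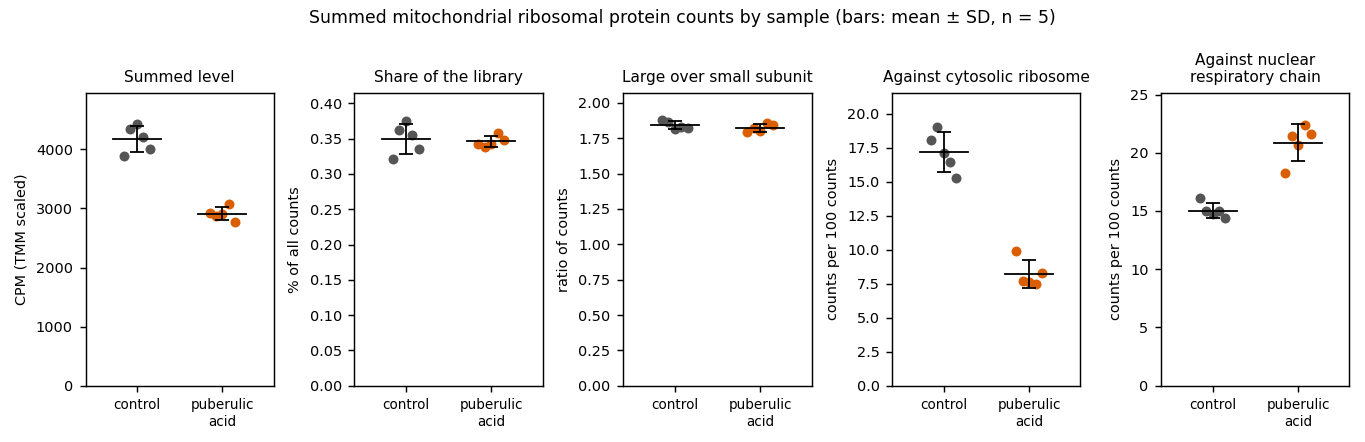
Sums over the 78 members in each control (grey) and puberulic acid (orange) sample, with mean ± SD: CPM, percent of all counts, large over small subunit, and counts per 100 counts of cytosolic ribosomal protein and of nuclear respiratory chain genes (y axes from 0). The share of the library (0.350% and 0.346%) and the subunit ratio overlap, while the CPM sum and both ratios to other genes do not.

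Other genes of mitochondrial translation were mostly lower too under TMM scaling. The counts below stand beside 31.1% of all genes tested called lower and 34.2% higher with TMM factors, and 15.5% lower and 56.4% higher with total counts. Of 5 ribosomal proteins with symbols of another kind (Dap3, Ptcd3, Aurkaip1, Chchd1 and Gadd45gip1), 5 were called lower, with a median of -0.52 (-0.01 with total counts, where Gadd45gip1 was lower and Chchd1 higher). Gadd45gip1 fell from 39.1 ± 5.46 to 21.6 ± 1.27 CPM and Dap3, a GTP-binding protein of the small subunit, from 74.6 ± 6.24 to 45.9 ± 3.95 CPM (SD, n = 5 each). Of 26 assembly factors 17 were lower and 0 higher, with a median of -0.36, which turned to 0.15 with total counts (6 lower, 8 higher). The largest decreases there were in Mettl15 and Mrm2, RNA methyltransferases of the mitochondrial ribosome, at -1.24 and -1.10. Of 19 translation factors tested 15 were lower, with a median of -0.85 (-0.34 with total counts, 10 lower and 2 higher), led by Hemk1 at -1.40 and the initiation factor Mtif3 at -1.30. Of 20 mitochondrial tRNA synthetases and amidotransferase subunits 16 were lower, with a median of -0.63 (-0.12 with total counts, 6 lower and 3 higher), with Gatb at -1.78.

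Medians of the respiratory chain lists lay below those of the mitochondrial ribosome, and medians of the cytosolic ribosome above. Of 13 mitochondrially encoded genes 13 were lower, with a median of -1.30 (-0.80 with total counts, 11 lower), led by mt-Nd6 at -2.07 and mt-Nd2 at -1.62. Of 72 nuclear respiratory chain genes tested 71 were lower, with a median of -0.92 (-0.41 and 58 lower with total counts), led by Ndufv3 at -1.82 and Sdhb at -1.53. Of 13 genes of mitochondrial DNA and RNA synthesis 8 were lower, with a median of -0.57, and of 11 mitochondrial chaperones and proteases 10 were lower, with a median of -0.77. With total counts these medians were -0.07 (4 lower, 4 higher) and -0.26 (5 lower, 1 higher). Prorp and Tefm led the former at -1.13 and -1.03, and the chaperones Trap1 and Hspd1 the latter at -1.55 and -0.96. In contrast, 41 of 47 cytosolic large subunit genes and 27 of 32 small subunit genes were higher and 0 lower, with medians of 0.52 and 0.63 (1.03 and 1.14 with total counts, all 47 and 32 higher). Rpl12 and Rpl15 rose by 2.24 and 1.06 on the log2 scale, and Rps4x and Rps3 by 1.03 and 0.97. All of these comparisons share the same samples, and no list was tested against another.

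**Figure D4:**
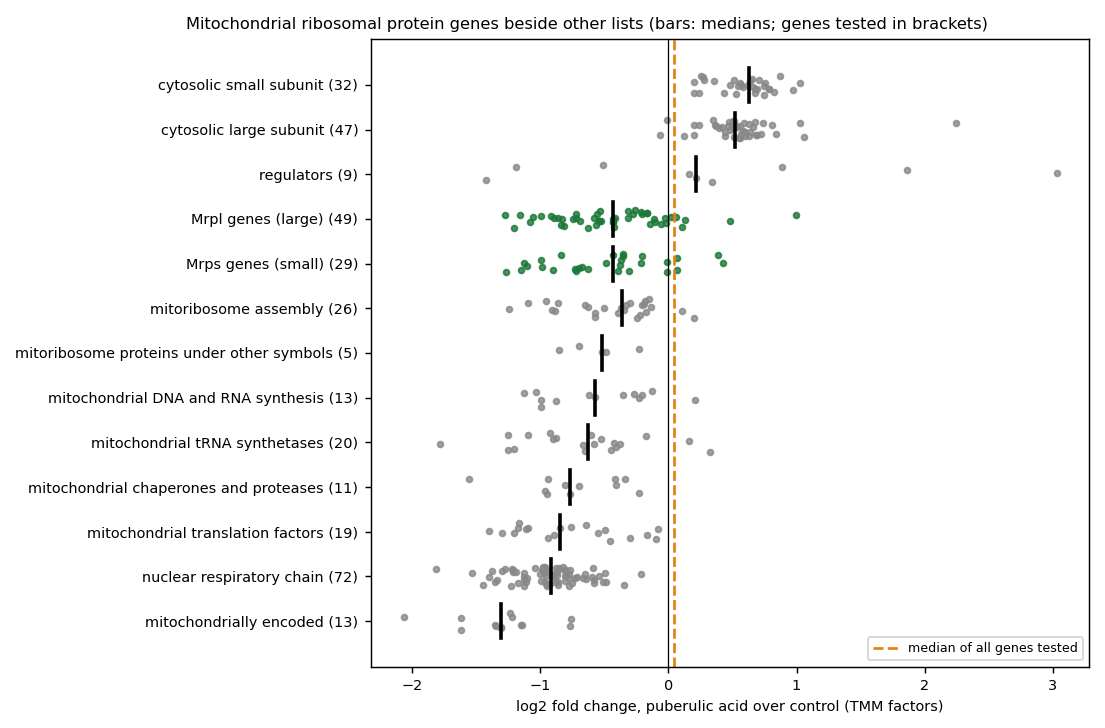
Log2 fold change under TMM scaling (x axis) of each tested gene (points) in the lists named on the y axis, with the number of genes in brackets, medians as black bars and the median of all genes tested, 0.05, as a dashed line. The Mrpl and Mrps genes (green, medians -0.43) lie between the cytosolic ribosome (0.52 and 0.63) and the respiratory chain (-0.92 and -1.30).

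Transcripts of factors known to act on genes for mitochondrial proteins were called in both directions, 4 of 9 higher and 3 of 9 lower, near the shares of all genes tested (34.2% and 31.1%). Esrra, a nuclear receptor of mitochondrial gene programmes, had 120, 151, 133, 159 and 174 CPM in controls and 73.8, 48.2, 51.6, 46.4 and 54.2 CPM with puberulic acid. The ranges did not overlap, and its log2 fold change was -1.43 ± 0.14 (edgeR adjusted p = 3.9e-06). The coactivator Ppargc1a fell from 59.2 ± 9.28 to 26.0 ± 13.2 CPM (SD, n = 5 each; edgeR adjusted p = 0.0018), with puberulic acid replicate 1 at 48.9 CPM and the other treated samples from 15.9 to 24.5 CPM. Ppargc1b fell by 0.51 on the log2 scale (edgeR adjusted p = 0.037) and stood at 0.00 with total counts. Its relative Pprc1 rose by 1.86, Nrf1 by 0.88 and Gabpa by 0.34 on the log2 scale (edgeR adjusted p = 0.00011, 0.00011 and 0.0064), and Myc rose by 3.03 (edgeR adjusted p = 7.4e-06). Gabpb1 and Yy1 were not called with TMM factors, at 0.22 and 0.16, and were called higher with total counts, at 0.73 and 0.67. Protein levels were not measured.

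Treated samples also differed among themselves. Among the 53 genes called lower, puberulic acid replicate 5 was the lowest treated sample for 22. Among the controls, replicate 3 was the highest for 28.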

How the data were processed

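The authors deposited estimated counts for each gene, with decimals. Libraries were poly(A) selected and directional, per the labels. The submitters' processing notes name fastp 0.22.0, FastQC 0.12.1, MultiQC 1.28, Salmon 1.10.3, DESeq2 and the build GRCm39, and the annotation release is not given in the sources used here. Symbols were matched for 51344 of 55822 identifiers, which hold 99.3% of the counts. The names of 10 sample columns do not show their lot, and these columns were not used.

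Counts were rounded to whole numbers, kept with filterByExpr and scaled with TMM factors. The 5 control and 5 puberulic acid samples were tested with the quasi-likelihood test of edgeR 4.0.16 (limma 3.58.1, R 4.3.3), adjusted over 16266 genes and called under 0.05. Standard errors are the log2 fold change over the square root of F. The script was tested on simulated data in which few genes changed, equally in both directions, so the choice of scaling was not tested. Nothing says how samples of a group relate beyond their number, so p-values measure the spread between these samples, which may in part be technical. Mrpl23, with the fewest counts, is the least precise member (SE 0.41 on the log2 scale). Coding lengths came from the GENCODE M21 annotation, since no protein table was used. Alternatives were RLE, upper-quartile, total-count and reduced TMM scaling, other filters, DESeq2 1.42.0, a robust fit, a replicate block and leaving out samples. Leaving out both replicates numbered 1, and counting Mrps18b by descent, were added after seeing the data. Python 3.11.15, pandas 2.3.3, numpy 2.4.6 and matplotlib 3.10.9 were used.

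Genes named are the 8 called members with the largest change in each direction (4 existed for increases), the 3 nearest 0, members with a known role, 2 companion lists in full, and from other lists the 2 called genes with the largest change in each direction, of which 1 is not reported here. Mrpl9, Mrpl23, Mrpl39, Mrpl46, Mrps11 and Mrpl23-ps1 were named after their values were seen. Members and lists were chosen with earlier results of these data known.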

Additional observations from a re-analysis of the deposited data

Results flagged for a closer look

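Levels of the named members and their sums were searched for a single sample far from the other 4 of its group, measured as its gap to the nearest sample over that group's range. Of 72 sets of 5 samples, 5 passed the limit of 0.71, where chance gives about 1 in 20, or 3.6. Control replicate 1 was the lowest control for Mrpl4, at 84.9 CPM against 99.7 to 103 CPM in the others (gap 0.801 of the range). It was also the lowest for Mrpl45, at 35.5 CPM against 44.3 to 46.1 CPM (gap 0.831). Puberulic acid replicate 1 was the highest treated sample for Mrpl34, at 26.6 CPM against 21.98 to 23.3 CPM (gap 0.724), and for Mrps23, at 67.4 CPM against 52.2 to 56.4 CPM (gap 0.726). Puberulic acid replicate 5 was the lowest for Mrps34, at 28.5 CPM against 34.2 to 36.2 CPM (gap 0.751).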

How the results depend on the processing

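The 4 calls higher were shared by every alternative run, and the 53 calls lower by all except upper-quartile factors (51 shared) and total counts (24 shared). With total counts 24 members were called higher and 24 lower, the medians of all, large and small subunit members turned to 0.0769, 0.0767 and 0.0771, and their summed levels moved to -0.0153, -0.0199 and -0.00701 on the log2 scale. This scaling also turned Mrpl3 to 0.294, Mrps18a to 0.294, Mrps16 to 0.133, Mrps27 to 0.14 and the assembly factors' median to 0.149. Upper-quartile factors moved the 3 medians to -0.335, -0.335 and -0.336. Mrps18c, Mrps6 and Mrpl15 changed sign with total counts (0.501, 0.496 and 0.486) and upper-quartile factors (0.0869, 0.0842 and 0.0757), and the first pair with a filter of 1 CPM (0.00316 and 0.00113). Moving Mrps18a and Mrps30 set the large minus small difference to 0.0583. Leaving out samples gave 53 to 56 calls lower, medians from -0.532 to -0.43 (all), -0.522 to -0.431 (large) and -0.542 to -0.408 (small), and values from -0.114 to 0.0616 for Mrps18c, -0.0982 to 0.0439 for Mrps6, -0.104 to 0.00235 for Mrpl15, -0.006 to 0.0745 for Mrps30 and -0.0137 to 0.095 for Mrps22. Mrpl3, at an adjusted p of 0.0518, ran from 0.0105 (higher, total counts) to 0.23 over the alternatives and was called lower in 6 of them. Except where samples or genes were removed, the cause was not tested. With the replicate block 53 members were lower and 4 higher, and Mrps18c was at 0.0207. Same-numbered samples correlated at -0.163 to 0.0159, so no shared deviation was seen, which cannot show whether the numbers pair them.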
